A study of Mus musculus with 8 samples.

Results

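The genes for the muscle acetylcholine receptor and for the proteins that build the neuromuscular junction were compared between esophagi of MGL KO and WT mice. The members were the rows of the deposited count table that carry 10 named gene symbols, of 32849 symbols listed. They are the receptor subunit genes Chrna1, Chrnb1, Chrnd, Chrne and Chrng and the endplate organizer genes Agrn, Lrp4, Musk, Dok7 and Rapsn. All 10 passed the filter on low counts, which left 14864 genes for testing. MGL, monoacylglycerol lipase, degrades the endocannabinoid 2-arachidonoylglycerol, and the study asked which genes differ at baseline when it is missing. RNA of frozen esophagus tissue was selected for poly(A) tails in 4 MGL KO and 4 WT libraries, from healthy mice without treatment. The study counts esophagi as its units, so each library was taken as 1 mouse, which the labels themselves do not state. MGL is deleted in the whole animal, and WT littermates were bred in-house. The study worked with male and female mice of 8 to 12 weeks, and the labels give neither age nor sex for a library.

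The mouse esophagus is unusual among gut organs in that its muscle coat is largely striated, so it carries motor endplates supplied by the vagus nerve. At an endplate, the nerve releases agrin, which binds Lrp4 and thereby activates the muscle receptor kinase MuSK. Dok-7 binds MuSK from inside the fiber and keeps it active, and rapsyn holds the acetylcholine receptors in dense clusters under the nerve ending. The receptor is a ring of alpha, beta and delta subunits with a gamma subunit in fetal or denervated muscle and an epsilon subunit in adult muscle.

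Library totals lay between 13479069 and 17090152 counts. Values are given as normalized CPM, counts scaled to equal library size after adjustment by TMM factors. Mgll, the targeted gene, was at 13.7 ± 1.54 normalized CPM (SD, n = 4) in MGL KO and 81.2 ± 9.97 (SD, n = 4) in WT esophagi. The 16 skeletal muscle markers summed to between 49747 and 113797 normalized CPM in MGL KO and 63940 and 98216 in WT libraries, so the labelled tissue held much striated muscle in both groups. Squamous epithelial markers summed to between 4876 and 17838 over the 8 libraries. MGL KO replicate 2 had the highest skeletal muscle and the lowest squamous sum. MGL KO replicate 4 had the lowest skeletal muscle sum and stood apart in 10 airway ciliated genes, with a sum of 667 normalized CPM against at most 17.2 elsewhere. Y-linked genes summed to between 186 and 224 normalized CPM in every library, so each library held male tissue. In whole tissue, fewer muscle cells and less RNA per cell cannot be told apart.

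No member reached an adjusted p under 0.05 (quasi-likelihood F test of edgeR, Benjamini-Hochberg over all 14864 genes), where 7 genes, or 0.0471% of those tested, did. The adjusted p of the members ran from 0.568 for Agrn to 0.96 for Musk. An unadjusted p under 0.05 was reached by 1 of the 10, against 8.65% of all genes tested. DESeq2, which called 0.935% of all genes, edgeR's exact test (0.431%) and limma-voom with quality weights (0.168%) called 0 members too. Members with an unadjusted p under 0.05 numbered 1 with DESeq2 (9.7% of all genes), 1 with the exact test (7.36%) and 3 with limma-voom (11.4%), where Dok7 and Chrng joined Agrn. In 1 member, Agrn, every MGL KO library lay below every WT library, which held for 3.3% of all genes tested. In 0 members did every MGL KO library lie above every WT library (2.72% of all genes). Of the 10 log2 fold changes (MGL KO minus WT), 7 were below 0 and their median was -0.17, beside a median of 0.02 over all genes tested, of which 47.0% were below 0.

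**Figure D1:**
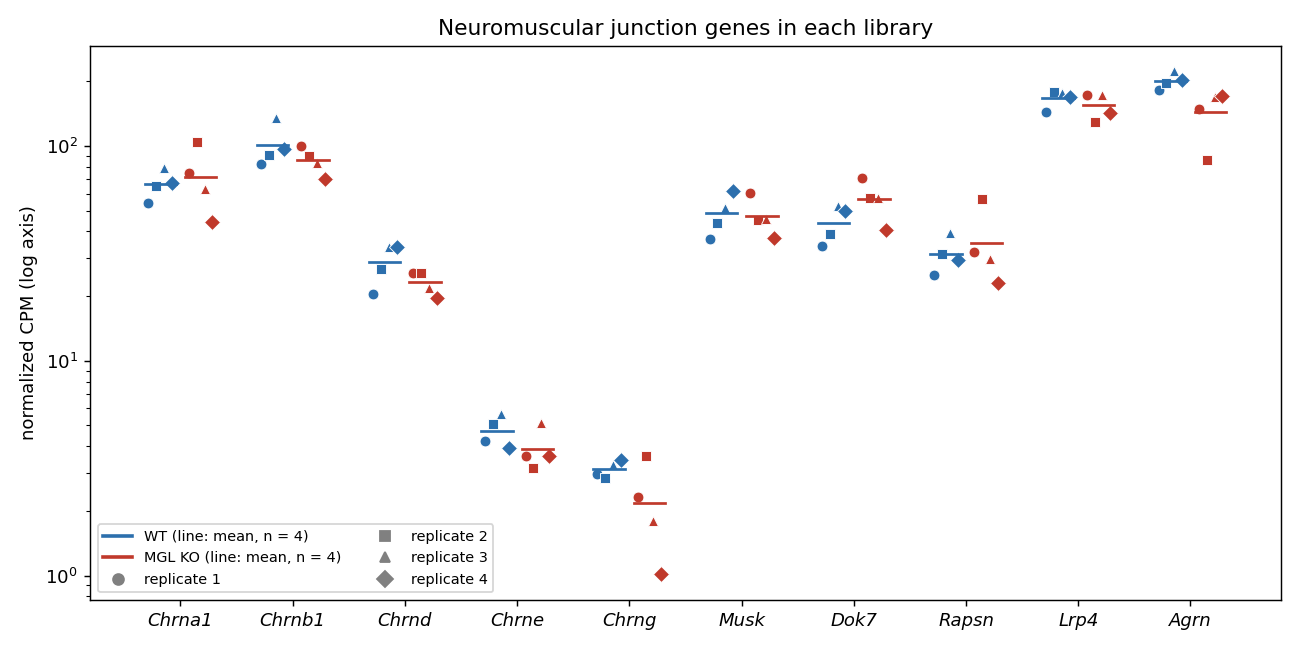
Normalized CPM (log axis) of the 10 members in each of the 8 libraries, with WT in blue, MGL KO in red, a marker shape for each replicate number and a line at each group mean (n = 4). The groups overlap in 9 of the 10 genes, and for Agrn all MGL KO libraries (86.0 to 171) lie below the WT libraries (183 to 223).

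Chrna1 encodes the alpha subunit, which carries the acetylcholine binding site. It lies on the reverse strand of chromosome 2 of GRCm39 from 73393557 to 73410835, and its merged exons share 601 bases with the antisense gene Gm30940. In MGL KO replicates 1 to 4 it was at 74.9, 104, 63.3 and 44.2 normalized CPM, and in WT replicates 1 to 4 at 54.1, 65.4, 79.3 and 67.0. The highest and the lowest value were both MGL KO libraries, so that the MGL KO range enclosed the WT range. The log2 fold change was 0.11 (standard error 0.24, 95% interval -0.43 to 0.65, adjusted p = 0.906 by edgeR).

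Chrnb1, the beta subunit gene, was at 99.7, 89.9, 83.5 and 70.4 normalized CPM in MGL KO and at 82.3, 91.0, 135 and 96.5 in WT replicates 1 to 4. Only WT replicate 3 stood above all MGL KO libraries. Chrnd, the delta subunit gene, was at 25.7, 25.7, 21.9 and 19.5 normalized CPM in MGL KO and at 20.5, 26.9, 33.9 and 33.8 in WT replicates 1 to 4. Of the WT libraries of Chrnd, 3 lay above every MGL KO library and WT replicate 1 lay among them. The 95% interval of the log2 fold change ran from -0.62 to 0.15 for Chrnb1 and from -0.72 to 0.10 for Chrnd.

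Chrne and Chrng, the genes of the adult epsilon and the fetal gamma subunit, were the lowest of the 10. Chrne lies on chromosome 11 of GRCm39 (70505707 to 70510125, reverse strand) and overlaps the locus of 4930544D05Rik with 0 shared exon bases, while Chrng lies beside Chrnd on chromosome 1 (87132379 to 87140416, forward strand). The Chrne count was 59, 35, 83 and 64 in MGL KO and 76, 89, 86 and 60 in WT replicates 1 to 4. For Chrng, the count was 38, 40, 29 and 18 in MGL KO and 53, 50, 50 and 53 in WT replicates 1 to 4. Each WT count of Chrng was thus above each MGL KO count, but MGL KO replicate 2 was the shallowest library, and after scaling it held the highest Chrng value of all 8, at 3.61 normalized CPM.

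After scaling, Chrng was at 2.18 ± 1.09 normalized CPM (SD, n = 4) in MGL KO and 3.14 ± 0.28 (SD, n = 4) in WT esophagi. MGL KO replicate 4 was lowest at 1.01, and WT libraries kept within 2.85 and 3.46. The log2 fold change of -0.53 had a standard error of 0.36 and a 95% interval of -1.36 to 0.29 (adjusted p = 0.688 by edgeR). It was -0.87 without MGL KO replicate 2 and -0.30 without MGL KO replicate 4, and it did not pass the threshold in either fit. For Chrne, the log2 fold change was -0.28 (95% interval -0.82 to 0.25).

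The fetal to adult balance was read as the log2 ratio of the Chrng to the Chrne count within a library, which does not depend on library size. It was -0.63, 0.19, -1.50 and -1.80 in MGL KO replicates 1 to 4 and -0.52, -0.83, -0.78 and -0.18 in WT replicates 1 to 4. The Chrng count exceeded the Chrne count in MGL KO replicate 2 alone, where per length Chrne was still 2.07 times Chrng, and the MGL KO libraries spread on both sides of the WT libraries. The means differed by -0.36 (MGL KO minus WT, two-sided exact permutation test, p = 0.457, where 4 libraries against 4 allow no p below 0.0286). The SD of the ratio was 0.90 in MGL KO and 0.30 in WT libraries, on 18 to 53 counts of Chrng a library.

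The start regions of these genes are shown because fetal and adult subunit genes are known to be driven through different short motifs. E-boxes (CANNTG, the same on both strands) bind myogenic factors such as MyoD and myogenin, and the N-box (CCGGAA or its complement TTCCGG) binds GABP, the factor through which synaptic nuclei switch on Chrne. RefSeq promoters (table build GRCm38.p6) were found for 7 of the 10 members, not for Chrnd, Rapsn and Lrp4, and the 150 bases before each start were searched. The windows below were placed on GRCm39 by exact match, run 5′ to 3′ along the gene's strand, and carry the motif in capitals.
Chrna1, E-box beginning 92 bases before the start, chr2:73410757-73410786, reverse strand: ctgtgggcagctCAGCTGtcatgcgggcac
Chrna1, E-box beginning 44 bases before the start, chr2:73410709-73410738, reverse strand: tagctgtggagtCAGCTGgcttccaaggcc
Chrng, E-box beginning 132 bases before the start, chr1:87133389-87133418, forward strand: gcagtggtcagaCAGCTGgtggggccagct
Chrne, E-box beginning 138 bases before the start, chr11:70510141-70510170, reverse strand: cacaggatggggCAGCTGcctcccccaccc
Chrne, N-box beginning 76 bases before the start, chr11:70510079-70510108, reverse strand: cccaaacctagcCCGGAActaacaccctcc

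The E-boxes printed were limited to the form CAGCTG. Chrna1 also held CAGGTG beginning 73 bases, and Chrng CACATG beginning 75 bases, before the start. Of all 32851 RefSeq promoters, 8.39% hold CAGCTG in a window of this length, 47.7% any E-box and 9.23% an N-box. Among the promoters found for members, the N-box was found in that of Chrne and in no other. An E-box was found in at least 1 promoter of each of the 7 genes, in the form CAGCTG also for Musk. Dok7 and Agrn each also had a promoter without an E-box, and the shares above are per promoter. GENCODE places the Chrna1 windows and the Chrne N-box within a first exon, the Chrng window in an intron of a longer transcript and the Chrne E-box upstream of the gene. A match is a description of the sequence, and these counts hold no measure of binding.

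Agrn, which encodes the nerve and muscle proteoglycan agrin that starts receptor clustering, lies on the reverse strand of chromosome 4 of GRCm39 from 156249740 to 156282014. It was at 149, 86.0, 169.9 and 171 normalized CPM in MGL KO and at 183, 197, 223 and 203 in WT replicates 1 to 4. All 4 MGL KO libraries lay below all 4 WT libraries, with MGL KO replicate 2 far below the rest. The log2 fold change was -0.49 (standard error 0.21, 95% interval -0.95 to -0.02), with an unadjusted p of 0.0425 and an adjusted p of 0.568 by edgeR, so Agrn did not pass the correction. Without MGL KO replicate 2, the log2 fold change was -0.30, with an unadjusted p of 0.0188 (9.31% of all genes were under 0.05 in that fit) and an adjusted p of 0.47. The groups stayed apart under RLE factors (6.05% of all genes apart in either direction) and under library size alone (5.13%). They also stayed apart with each library left out, but removing a library from groups already apart could hardly make them overlap.

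Agrin is also made outside muscle, by epithelium and blood vessels. In MGL KO replicate 2, where Agrn was lowest, the squamous markers were lowest as well (mean log2 CPM 7.68, other MGL KO libraries 8.66 to 9.36). WT replicate 3 had similarly low squamous markers (7.83) and the highest Agrn of all libraries. With the mean of the 9 squamous markers as a covariate, the log2 fold change of Agrn was -0.53 (adjusted p = 0.407 by edgeR), and with that of the 16 skeletal muscle markers it was -0.57 (adjusted p = 0.229). The 6 endothelial markers were all lower in MGL KO, with a median log2 fold change of -0.17. Of them, 0 passed the threshold and 1 had an unadjusted p under 0.05, against 8.65% of all genes tested. What part epithelium, muscle or blood vessels had in the Agrn values was not tested.

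Lrp4, the agrin receptor on the fiber, was the steadiest of the 10. It was at 173, 129, 173 and 142 normalized CPM in MGL KO and at 144, 178, 177 and 169 in WT replicates 1 to 4. The ranges overlapped in part, with 2 MGL KO libraries below the lowest WT library, and the 95% interval of the log2 fold change ran from -0.41 to 0.18. Musk, the receptor kinase, was at 60.3, 45.3, 45.8 and 37.1 normalized CPM in MGL KO and at 36.8, 43.9, 51.7 and 61.5 in WT replicates 1 to 4. Both groups of Musk covered nearly the same range, with a log2 fold change of -0.04 (95% interval -0.47 to 0.39).

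Dok7, whose product binds and activates MuSK, was at 71.3, 57.3, 57.2 and 40.5 normalized CPM in MGL KO and at 34.1, 38.8, 52.6 and 49.9 in WT replicates 1 to 4. MGL KO replicates 1 to 3 lay above every WT library, and MGL KO replicate 4 lay among the WT libraries. It had the largest positive log2 fold change of the 10, at 0.37 (standard error 0.19, 95% interval -0.07 to 0.81, adjusted p = 0.632 by edgeR). Without MGL KO replicate 4, it was 0.50 with an adjusted p of 0.513, and the groups did not overlap, which held in either direction for 10.9% of all genes tested without that library. With the skeletal muscle markers as a covariate, it was 0.46 with an unadjusted p of 0.0175, in a fit where 16.6% of all genes had an unadjusted p under 0.05, and an adjusted p of 0.231.

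Rapsn, the gene of the scaffold rapsyn, was at 32.0, 56.6, 29.9 and 22.9 normalized CPM in MGL KO and at 25.1, 31.3, 39.3 and 29.5 in WT replicates 1 to 4. As with Chrna1, the highest and lowest values were MGL KO replicates 2 and 4. The log2 fold change was 0.17 (95% interval -0.43 to 0.78). Without MGL KO replicate 2, it turned to -0.14, and that of Chrna1 turned from 0.11 to -0.13.

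**Figure D2:**
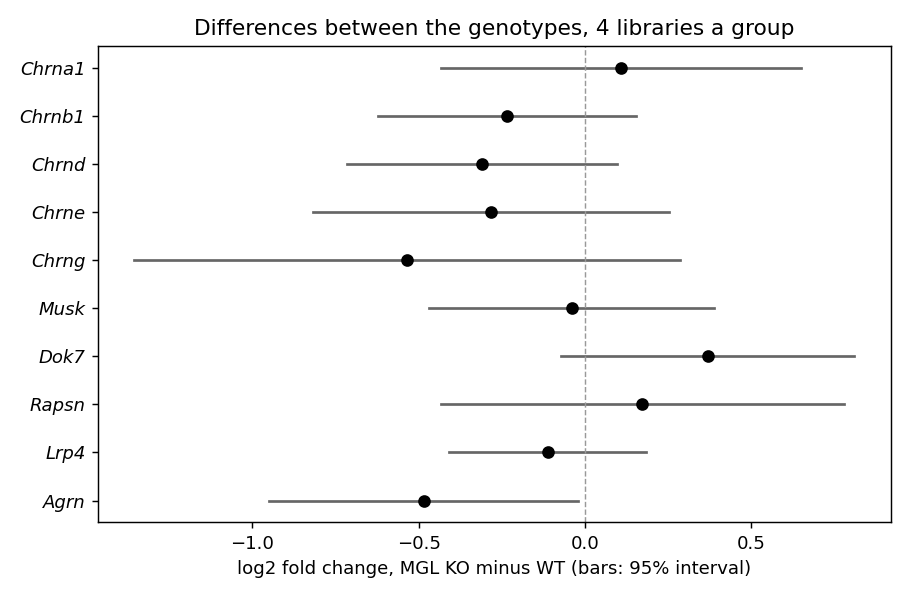
Log2 fold change (MGL KO minus WT) of each member with its 95% interval from the edgeR fit, 4 libraries a group. The interval of Agrn (-0.95 to -0.02) is the only one that does not hold 0, before any adjustment for the number of genes tested, and the widest is that of Chrng (-1.36 to 0.29).

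Levels of different genes were compared per length, as normalized CPM per kb of merged exon. In WT esophagi, Chrnb1 was highest at 38.7 ± 8.84 normalized CPM per kb (SD, n = 4) and Chrng lowest at 0.75 ± 0.07 (SD, n = 4), a span of 51.8-fold. Agrn followed Chrnb1 at 21.0 ± 1.73 normalized CPM per kb. Lrp4 at 15.5 ± 1.47, Rapsn at 14.7 ± 2.80 and Chrna1 at 14.6 ± 2.27 did not differ beyond their spread. Chrnd at 7.98 ± 1.78, Dok7 at 6.29 ± 1.27 and Musk at 5.77 ± 1.26 normalized CPM per kb came next, with overlapping spreads. Within libraries, Chrnd was above Dok7 by this length in 4 of 4 WT and in 0 of 4 MGL KO libraries. These counts depend on the length used, and the pair was picked after its values were seen. With the longest transcript as the length, the WT mean was 9.27 normalized CPM per kb for Chrnd and 10.9 for Dok7. Chrne came next to last at 2.66 ± 0.45. Musk stood above Chrne, and Chrne above Chrng, in all 8 libraries.

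Within a library, the alpha subunit gene was thus 5.55 ± 0.80 times (SD, n = 4) as abundant per length as the epsilon gene in WT and 7.67 ± 3.84 times in MGL KO esophagi. Chrna1 to Chrnb1 was 0.38 ± 0.03 in WT and 0.47 ± 0.13 in MGL KO. The adult gene Chrne was 3.59 ± 0.70 times the fetal gene Chrng in WT and 5.24 ± 2.88 times in MGL KO, with values between 2.07 and 8.42 over the 8 libraries. Merged exons count bases that a muscle transcript may not use, and with the longest transcript as the length the span was 41.3-fold and Dok7 came before Chrnd. The annotation behind the deposited counts is not given in the sources used here, so lengths are those of GENCODE.

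**Figure D3:**
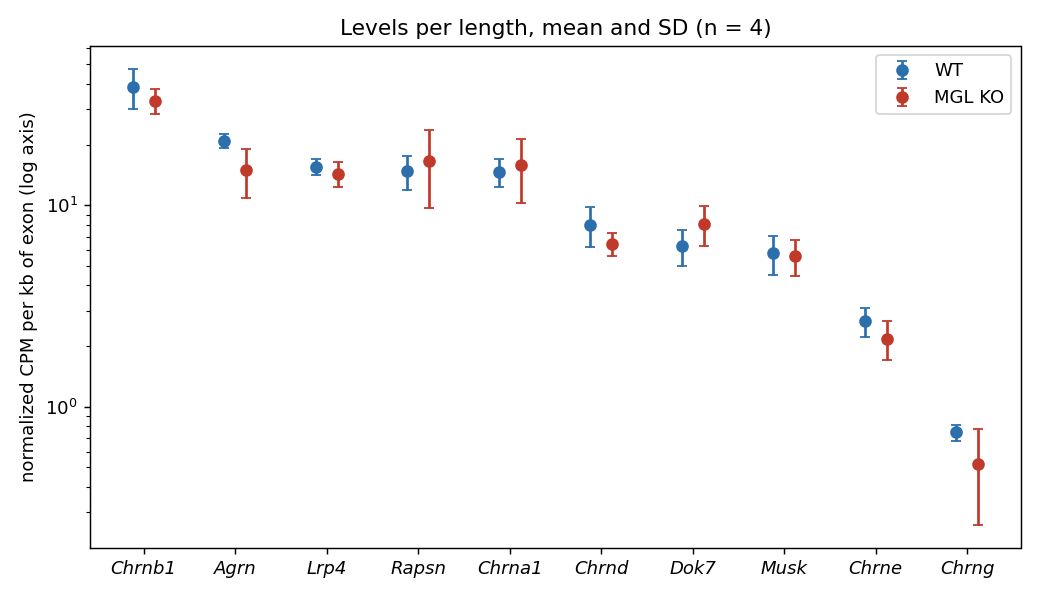
Normalized CPM per kb of merged exon (log axis) for the 10 members in WT (blue) and MGL KO (red) esophagi, as mean with SD (n = 4), in the order of the WT means. Chrnb1 is highest (38.7 in WT), and the adult and fetal subunit genes Chrne (2.66) and Chrng (0.75) close the order.

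Across the 8 libraries, Chrna1 and Rapsn kept the closest step of the 45 pairs of members. The Rapsn to Chrna1 ratio per length was 0.91, 1.16, 1.01 and 1.11 in MGL KO and 0.99, 1.02, 1.06 and 0.94 in WT replicates 1 to 4, so that its highest and lowest values differed 1.27-fold. Chrna1 itself varied between 44.2 and 104 normalized CPM over the same libraries. Next came Chrnb1 and Chrnd, whose ratio spanned 1.41-fold. When the genes tested were ordered by the root mean square difference of their centred log2 CPM from Chrna1 over the 8 libraries, Gyg (0.06), Klhl41 (0.06) and Mllt3 (0.06) came first, and Rapsn was at place 48 of 14863 (0.11). The other members lay between place 2870 (Chrnb1) and place 11209 (Agrn).

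The skeletal muscle markers moved with this pattern. Their mean log2 CPM was highest in MGL KO replicate 2 (11.4) and WT replicate 3 (11.3) and lowest in MGL KO replicate 4 (10.3), the order in which Chrna1 and Rapsn were also highest and lowest. Between the genotypes, it differed by -0.13 (two-sided exact permutation test, p = 0.686). With this mean as a covariate, the standard error of the log2 fold change went from 0.24 to 0.10 for Chrna1 and from 0.27 to 0.12 for Rapsn, while for Lrp4 it went from 0.13 to 0.13, for Agrn from 0.21 to 0.19 and for Chrne from 0.24 to 0.24. The log2 fold changes in that fit were 0.19 for Chrna1 (adjusted p = 0.379 by edgeR) and 0.26 for Rapsn (adjusted p = 0.321).

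**Figure D4:**
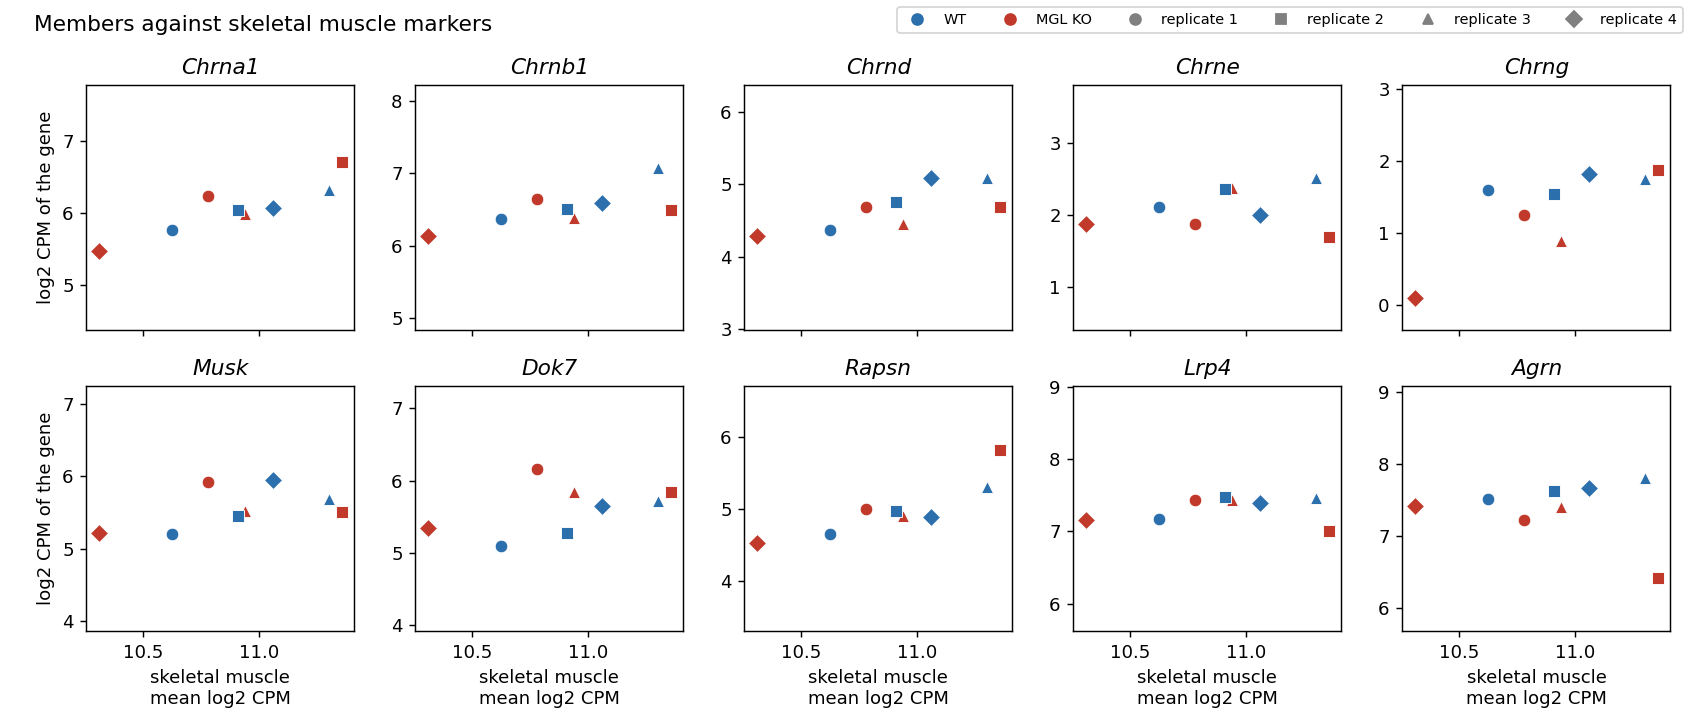
Log2 CPM of each member (vertical axes, each spanning the same range) against the mean log2 CPM of 16 skeletal muscle markers (horizontal axis) in the 8 libraries, with WT in blue, MGL KO in red and a marker shape for each replicate number. Chrna1 and Rapsn run upward from MGL KO replicate 4 (10.3 on the horizontal axis) to MGL KO replicate 2 (11.4), whereas Agrn is lowest in MGL KO replicate 2.

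Dcp1b (root mean square difference 0.07), Snrnp70 (0.08) and 4632404H12Rik (0.08) were nearest to Agrn in the same order, and Chrne was the nearest member at place 915 of 14863, followed by Lrp4 at place 1459. Chrnb1 was at place 4191 and Chrnd at 4709, while Chrna1 was at place 12061, Rapsn at 12635 and Chrng at 12781. In MGL KO replicate 2, Chrna1 and Rapsn were at their highest and Agrn at its lowest.

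Ratios between members were also compared between the genotypes. In 5 of the 45 pairs (11.1%), all MGL KO libraries lay on one side of all WT libraries, which held for 6.01% of all pairs of genes tested and above 0 in every library. Dok7 was in 3 of these 5 pairs and Chrng in 2. The Musk to Dok7 ratio per length was 0.70, 0.66, 0.66 and 0.76 in MGL KO and 0.90, 0.94, 0.81 and 1.02 in WT replicates 1 to 4. The Chrnb1 to Dok7 and Chrnd to Dok7 ratios were lower in MGL KO as well, by 0.58 and 0.65 on the log2 scale. The pairs share genes and were picked after their values were seen, so they are given without a test.

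Genes around the endplate were read from lists of other roles, and in all of them together 0 genes passed the adjusted threshold in the quasi-likelihood fit. The synaptic cleft list held 8 tested genes, all with a lower mean in MGL KO, 0 with an unadjusted p under 0.05 and a median log2 fold change of -0.25. In it, Ache, the esterase that clears acetylcholine, was at 52.7 ± 8.13 normalized CPM (SD, n = 4) in MGL KO and 69.5 ± 18.8 (SD, n = 4) in WT, and Nid2, a basal lamina gene, was at 15.8 ± 5.76 and 21.1 ± 10.2, so both overlapped between the groups. Among 13 signaling partners of MuSK, 10 were higher and 3 lower, with a median of 0.12. An unadjusted p under 0.05 was reached by 4 of them, 3 of these higher, against 8.65% of all genes tested. The groups were apart with MGL KO higher in 2 (2.72% of all genes) and lower in 1 (3.3%). Ptpn11, a phosphatase gene with the largest positive log2 fold change of the list, was at 325 ± 30.1 normalized CPM in MGL KO and 266 ± 31.3 in WT, with overlapping groups. The adaptor gene Crk was at 167 ± 13.2 normalized CPM in MGL KO and 140.2 ± 8.02 in WT (log2 fold change 0.25, adjusted p = 0.55 by edgeR), with groups that did not overlap, and the kinase gene Abl1 was at 90.8 ± 14.4 and 114 ± 10.2 (-0.33, adjusted p = 0.55), also without overlap. Crkl, a close relative of Crk, was at 62.0 ± 3.96 and 52.7 ± 2.01 normalized CPM without overlap (0.23, adjusted p = 0.512).

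The dystrophin complex list (7 tested, 3 higher and 4 lower, median -0.06) and the neuregulin and N-box list (8 tested, 2 higher and 6 lower, median -0.10) held 0 genes with an unadjusted p under 0.05. Gabpa, which encodes the N-box binding factor, was at 46.6 ± 1.95 normalized CPM (SD, n = 4) in MGL KO and 46.2 ± 2.18 (SD, n = 4) in WT, and its log2 fold change of 0.01 had a 95% interval of -0.17 to 0.19. Erbb4, a neuregulin receptor gene, differed by -0.21 and Nrg1, the gene of its ligand, by -0.19 on the log2 scale. In the dystrophin complex list, the 95% interval of Dmd, the dystrophin gene, ran from -0.23 to 0.38.

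Genes known to respond when muscle loses its nerve or its activity were tested as a list of 10, of which 7 were higher and 3 lower (median log2 fold change 0.46). An unadjusted p under 0.05 was reached by 3 of them, against 8.65% of all genes tested, and the groups were apart in 2, 1 higher (2.72% of all genes) and 1 lower (3.3%). Myod1, a myogenic factor, was at 33.9 ± 9.14 normalized CPM (SD, n = 4) in MGL KO and 16.5 ± 3.30 (SD, n = 4) in WT, without overlap (log2 fold change 1.03, standard error 0.22, adjusted p = 0.306 by edgeR). Hdac9, a repressor of activity-dependent genes in muscle, was at 12.9 ± 2.51 and 18.6 ± 2.76, without overlap (-0.53, adjusted p = 0.509). Myog, the gene of myogenin, was at 37.5 ± 15.9 normalized CPM in MGL KO and 26.2 ± 7.85 in WT, with overlapping groups. Chrng, itself a classical gene of this response, had a negative log2 fold change (-0.53), and Ncam1, the neural cell adhesion molecule, differed by -0.16.

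Of 5 genes of developing muscle, 4 were higher and 1 lower. An unadjusted p under 0.05 was reached by 2 of them, against 8.65% of all genes tested. Myh3, the embryonic heavy chain, was at 44.5 ± 12.6 normalized CPM (SD, n = 4) in MGL KO and 10.3 ± 3.17 (SD, n = 4) in WT (log2 fold change 2.11, standard error 0.27, adjusted p = 0.0535 by edgeR). Its MGL KO libraries (31.0 to 61.4) all lay above its WT libraries (6.73 to 13.1), which held for 2.72% of all genes tested. The study, which used edgeR's exact test, lists Myh3 among its genes with an adjusted p under 0.05. Chrng, the fetal receptor gene, was at 2.18 normalized CPM in MGL KO and 3.14 in WT. Tnnt2 reached 412 normalized CPM in 1 library, MGL KO replicate 4, against at most 51.8 in WT, with an adjusted p of 0.55 by edgeR. Myl4 reached 206 normalized CPM in that library, against at most 32.4 in WT. MGL KO replicate 4 was also the library that stood apart in the airway ciliated genes, and whether it held other tissue was not tested. Myh8, the perinatal heavy chain and by far the most abundant of the list, was at 27497 ± 5871 normalized CPM in MGL KO and 27234 ± 3329 in WT (log2 fold change 0.01), and Actc1, the cardiac actin gene, differed by -0.28. In the skeletal muscle list (16 tested, 8 higher and 8 lower, median -0.01), Myh4, a fast myosin, was at 1055 ± 679 normalized CPM (SD, n = 4) in MGL KO and 2661 ± 725 (SD, n = 4) in WT (log2 fold change -1.33, adjusted p = 0.485), with 0 genes past the threshold.

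The nicotinic subunits of neurons and epithelium were mostly scarce. Of 11 such genes, 4 passed the filter, 2 of them higher and 2 lower. Chrna9, a subunit gene of hair cells and some epithelia, was at 98.5 ± 33.5 normalized CPM (SD, n = 4) in MGL KO and 55.8 ± 8.44 (SD, n = 4) in WT. MGL KO libraries of Chrna9 ranged from 60.3 to 141 and WT libraries from 47.2 to 63.4, so the groups overlapped. The difference was 0.82 on the log2 scale (standard error 0.24) and its adjusted p by edgeR was 0.478. Chrna10, the usual partner of Chrna9, was at 1.78 ± 0.25 normalized CPM in MGL KO and 2.81 ± 1.17 in WT (log2 fold change -0.66), and Chrnb2, a beta subunit gene of neurons, at 2.25 ± 0.87 and 3.23 ± 0.28 (-0.51), both with overlapping groups. Chrna3, the ganglionic alpha subunit gene, was at 1.41 ± 0.58 and 1.39 ± 0.26 normalized CPM. Nerve terminal genes were low in both groups, with 10 listed genes summing to between 26.9 and 36.1 normalized CPM. Of the 8 tested, 4 were higher and 4 lower. Chat, which marks cholinergic neurons and is transcribed in their cell bodies, had 0 to 10 counts in a library, where 3 counts equal between 0.167 and 0.271 normalized CPM, a limit for counting error only.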

How the data were processed

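Poly(A) RNA of frozen esophagus tissue was sequenced in 8 libraries, 4 of each genotype. Per the labels and the study's methods, the authors ran FastQC 0.11.9, trimmed adapters with Cutadapt, aligned reads to GRCm39 with STAR 2.7.10b and deposited raw counts per gene symbol; the counting tool, its use of strand and the annotation are not given in the sources used here. Genes were filtered with filterByExpr at a minimum count of 10, which kept 14864 of 22721 symbols with a count and 98.1% to 99.9% of each library. Groups came from the sample titles. The genotypes were compared with the quasi-likelihood F test (edgeR 4.0.16, R 4.3.3, TMM factors) and Benjamini-Hochberg adjusted p-values at a threshold of 0.05. Standard errors are the log2 fold change over the square root of F, and 95% intervals use the moderated degrees of freedom. Without strand, reads of a gene and its antisense partner cannot be told apart.

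The alternatives were edgeR's exact test, which the methods name, DESeq2 1.42.0, limma-voom with quality weights (limma 3.58.1), other factors and filters, covariates, the replicate block and leaving out libraries. Log2 CPM used a prior count of 1. Genes named were the 10 members, Mgll, list genes past the threshold and the 3 nearest to Chrna1 and Agrn. From lists on the junction and on muscle, up to 2 with the largest rise and fall were named too. Myog, Crkl, Myh8, Myl4 and Chat were named outside this rule after their values were seen. The ratios between members were also chosen after their values were seen. Members and lists were chosen with earlier results of these data known. Positions and lengths are from GENCODE vM39 on GRCm39. Tests were checked on simulated data. The lowest chi-square per degree of freedom between 2 libraries of a group was 13.6, so none were alike within sampling noise.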

Additional observations from a re-analysis of the deposited data

How the results depend on the processing

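No member passed an adjusted p of 0.05 in any of the 20 alternatives, 2 of which (without MGL KO replicates 2 and 4 together, and the squamous covariate) were chosen after seeing the data. Over all genes, 7 calls became 64 in the exact test on filtered genes, 42 in the same test without that filter, 137 with DESeq2, 25 with quality-weighted limma-voom, 27 after fitting the skeletal muscle covariate, 3 with the Y-linked covariate, and 2 without a filter, with the replicate block and without MGL KO replicates 2 and 4 together; with 1 library left out there were 2 to 5. Why the number of calls changed was not tested, and some of these settings also held fewer libraries or more genes.

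Of 200 log2 fold changes of members, 10 changed sign. Musk (-0.04) was 0.041 with limma-voom, 0.024 with the skeletal muscle covariate, 0.012 with the Y-linked covariate and 0.13 without MGL KO replicates 2 and 4 together, where Rapsn was -0.013 and Lrp4 0.053. With 1 library left out, Musk ranged from -0.18 to 0.10, Chrna1 from -0.13 to 0.28 and Rapsn from -0.14 to 0.33. Agrn, Chrnb1, Chrnd, Chrne, Chrng and Dok7 kept their sign in all 20 alternatives. The skeletal muscle difference (-0.13) ranged from -0.29 to 0.055, with the highest value without MGL KO replicate 4. The Chrng to Chrne difference ranged from -0.74 without MGL KO replicate 2 to -0.07 without MGL KO replicate 4. The span of levels per length (51.8) was 41.3 with the longest transcript. Members with groups apart were 1 to 2 with 1 library left out, where 7.9% to 10.9% of all genes were apart, and 3 (Agrn, Dok7 and Chrng) without MGL KO replicates 2 and 4 together, where 16.9% were.

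Deviations of same-numbered libraries correlated at -0.14, -0.28, -0.14 and 0.08, and no pairing beyond the number itself was shown. With the replicate block, Agrn was at -0.53 (adjusted p = 0.923 by edgeR), and the sign-flip test over same-numbered pairs of the Chrng to Chrne ratio gave an exact p of 0.625. Chrne and Chrng had the lowest counts of the members.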
